A study of Mus musculus with 8 samples.

Results

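Gas5, Snhg1, Snhg3, Snhg4, Snhg5, Snhg6, Snhg8 and Snhg12 are 8 of the 37796 gene entries in a table of newly made RNA from mouse embryonic stem cells. They were taken by name as small nucleolar RNA host genes, with earlier results of these data known. The cells were a male 129 line engineered for conditional knockout of Ythdc1, the gene of a nuclear protein that binds N6-methyladenosine in RNA, and they were grown in serum and LIF without feeders. All were exposed to DRB, a reversible blocker of transcript elongation by RNA polymerase II, at 100 μM for 3 h. After washing, RNA was tagged with 1 mM 4-thiouridine (4sU) for 0 or 8 min and purified through the tag. Before this, cells had received 4-hydroxytamoxifen (4OHT) at 1 μg/ml or its solvent DMSO for 4 days, and the 4 resulting groups held 2 libraries each. The labels give neither the recombinase nor the deleted part of Ythdc1, and nothing says that libraries came from separate cultures, so the p-values measure the spread between these libraries, which may be technical. By their titles the 0 min samples are of cell line number 1 and the 8 min samples of number 2, whereas in the table each labelling time has columns of either number, so a change with time cannot be told apart from a change of line. Columns without 4OHT in their name were taken as DMSO, and library numbers below are only names.

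Small nucleolar RNAs guide chemical modification of other RNAs, chiefly ribosomal RNA. Box C/D RNAs direct methylation of the ribose, and box H/ACA RNAs direct conversion of uridine to pseudouridine. In mammals most are cut from introns after splicing, and the genes here carry them in introns of transcripts classed as noncoding. Host genes of this kind often begin with a run of pyrimidines, the terminal oligopyrimidine signature of ribosomal protein genes, and several of their spliced RNAs are broken down by nonsense-mediated decay, so the level of mature host RNA can be a poor guide to its synthesis. Newly made RNA is therefore the more direct readout of these genes.

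The hosts are short. In GRCm38.p6 (RefSeq, mm10 coordinates), Snhg8 is the shortest at 785 bases (chr3:123507552-123508336, minus strand) and Snhg4 the longest at 4907 bases. Gas5 spans 3939 bases on chr1:161034601-161038539 (plus strand, 8 RefSeq transcripts), and Snhg6 lies on chr1:9942025-9944118. Snhg1 lies on chr19:8723487-8726326 (plus), Snhg5 on chr9:88521052-88522897 (minus), and Snhg12 and Snhg3 lie near each other on chr4:132308678-132311024 (plus) and chr4:132351933-132353686 (minus). All 8 are annotated as long noncoding RNA genes. RefSeq places 27 small nucleolar RNA genes inside them, 8 each in Gas5 and Snhg1, 4 in Snhg12, 2 each in Snhg3 and Snhg5, and 1 each in Snhg4, Snhg6 and Snhg8. By the names of the RNAs inside, Gas5, Snhg1 and Snhg6 host box C/D RNAs (Snord47, Snord22 and Snord87), as Snhg5 is known to do. Snhg3 (Snora73a, Snora73b), Snhg4 (Snora74a) and Snhg8 (Snora24) host box H/ACA RNAs, and Snhg12 hosts both kinds (Snora16a, Snora44, Snora61 and Snord99).

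Start regions were available from RefSeq for 6 of the hosts, in 7 windows since Gas5 has 2 such starts. They are shown because these genes moved together after DRB was washed out, and because the pyrimidine run is the feature for which such starts are known. Each line runs 5′ to 3′ along the gene, from 50 bases before the annotated start through its first 40 bases, with the longest pyrimidine run that has a base within 10 bases of the start in capitals, although it may reach farther.
Gas5, first annotated start (chr1:161034551-161034640, plus strand): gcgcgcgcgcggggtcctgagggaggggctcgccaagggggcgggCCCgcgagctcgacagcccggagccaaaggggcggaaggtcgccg
Gas5, second annotated start (chr1:161035116-161035205, plus strand): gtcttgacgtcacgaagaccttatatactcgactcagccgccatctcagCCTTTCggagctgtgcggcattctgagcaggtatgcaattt
Snhg1 (chr19:8723437-8723526, plus strand): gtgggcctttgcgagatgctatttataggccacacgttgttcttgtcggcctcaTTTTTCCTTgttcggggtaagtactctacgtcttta
Snhg5 (chr9:88522858-88522947, minus strand): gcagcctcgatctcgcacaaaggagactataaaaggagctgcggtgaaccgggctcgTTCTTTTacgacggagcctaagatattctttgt
Snhg3 (chr4:132353647-132353736, minus strand): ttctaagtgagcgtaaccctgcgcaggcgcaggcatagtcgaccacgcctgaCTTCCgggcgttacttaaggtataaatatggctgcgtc
Snhg8 (chr3:123508297-123508386, minus strand): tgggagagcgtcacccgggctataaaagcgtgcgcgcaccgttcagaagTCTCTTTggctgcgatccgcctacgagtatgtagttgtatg
Snhg12 (chr4:132308628-132308717, plus strand): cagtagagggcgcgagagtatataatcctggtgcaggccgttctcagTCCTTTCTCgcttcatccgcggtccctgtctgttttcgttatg
The run at the second Gas5 start and at Snhg8 begins at position -1, counting the annotated start as 1 and the base before it as -1, and at Snhg12 it begins at -3. At Snhg1 and Snhg5 it begins downstream, at positions 5 and 8. Runs of at least 6 pyrimidines occurred in 5 of the 7 windows, against 29.97% of 32851 RefSeq promoters searched the same way, and runs of at least 7 in 4 of the 7, against 20.21%. The letters TATAAA or TATATA on the gene's strand, lying wholly between positions -45 and -16, occurred in 4 of the 7 windows, against 2.956% of all promoters. They began at -29 (second Gas5 start, TATATA), -30 (Snhg8, TATAAA), -32 (Snhg12, TATATA) and -23 (Snhg5, TATAAA). These are matches of letters, not measured sites.

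Library depth was 46.3 M (mega) to 61.4 M reads at 0 min and 93.1 to 134 M reads at 8 min. The deposited values are reads divided by 1 number per library, and the hosts rested on 94 reads (Snhg8, DMSO, 0 min) to 32044 reads (Snhg1, DMSO, 8 min). A single noncoding entry, Gm26917, held 23.2% to 27.7% of the 0 min reads but 2.67% to 3.92% of the 8 min reads. The 8 embryonic stem cell markers searched summed to 3315 to 11729 normalised reads, against 29.9 to 85.5 for 9 fibroblast and feeder markers, 32.8 to 112 for 7 primitive endoderm markers and 17.1 to 136 for 6 trophoblast markers. In both 0 min groups Lum was at 0 in every library, as were Sox17, Sox7, Foxa2 and Afp with 4OHT at 0 min, Sox17 with DMSO at 0 min and Foxa2 with 4OHT at 8 min. Their 8 min values are given with the treatment comparison. Ythdc1 itself read 1409 and 2708 in the DMSO libraries of 8 min and 2696 and 5168 in the 4OHT ones, after 133 and 185 and then 129 and 412 at 0 min. Relative to the typical gene it was lower with 4OHT (log2 fold change -0.53 ± 0.13 SE, limma adjusted p = 0.00257, after the scaling described with that comparison), and reads over the whole gene need not show a deletion of part of it.

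All 8 hosts were higher 8 min after DRB removal than at 0 min, with DMSO and with 4OHT. The change was largest for Snhg8, Snhg5 and Gas5 and smallest for Snhg4. The comparison asks how much RNA of each gene appeared in the first minutes of restarted transcription, and its 0 min libraries had no labelling time. All 8 passed in both treatments (limma, Benjamini-Hochberg over 20659 genes at 0.05), where 47.0% of genes tested rose with DMSO (1.96% fell) and 74.0% with 4OHT (0.823% fell). In each of the 8 genes both 8 min libraries lay above both 0 min libraries, in either treatment. How many of all genes did so was not counted, so this is not shown to be particular to the hosts.

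Among the box C/D hosts, Gas5, named for its accumulation in growth-arrested cells, read 84.1 and 106 normalised reads with DMSO at 0 min and 1085 and 1805 at 8 min. With 4OHT it read 86.6 and 181 at 0 min and 2536 and 3575 at 8 min. In either treatment the lowest 8 min library was above the highest 0 min library, and the fitted log2 fold change was 3.87 ± 0.62 (SE, 14.6-fold, limma adjusted p = 6.45e-09) with DMSO and 4.58 with 4OHT. Snhg5 started much lower, at 9.37 and 19.1 with DMSO against 10.0 and 27.0 with 4OHT. At 8 min it read 216 and 293 with DMSO against 580 and 869 with 4OHT, changes of 4.13 ± 0.59 (adjusted p = 6.06e-11) and 5.34 on the log2 scale in the limma fit.

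Snhg1, the host with the highest 0 min level per length, rose less. It read 216 and 293 with DMSO against 184 and 478 with 4OHT at 0 min, and 1087 and 1664 against 2237 and 3532 at 8 min. Its log2 fold change was 2.42 ± 0.64 with DMSO (limma adjusted p = 0.000623) and 3.24 with 4OHT. Snhg6 read 66.4 and 141 with DMSO against 76.8 and 293 with 4OHT at 0 min, a wide spread within each group. At 8 min it read 490 and 892 with DMSO against 1109 and 1728 with 4OHT, and its changes were 2.76 ± 0.60 (limma adjusted p = 2.84e-05) and 3.19. Snhg6 overlaps Mcmdc2, a gene of the MCM domain family, whose own entry read 457 and 1122 with DMSO at 0 min, and the strand counted is not stated.

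Snhg8, the shortest and a box H/ACA host, had the widest range of all. It read 9.79 and 6.37 with DMSO against 8.96 and 8.38 with 4OHT at 0 min, then 262 and 355 with DMSO against 611 and 1060 with 4OHT at 8 min. The DMSO change of 5.10 ± 0.59 on the log2 scale (34.3-fold, limma adjusted p = 6.63e-16) stood at the 99.1 percentile of all genes tested, and the 4OHT change was 6.38. Snhg3 read 46.8 and 49.9 with DMSO against 44.2 and 84.2 with 4OHT at 0 min, then 295 and 389 against 777 and 1007. It changed by 2.78 ± 0.59 (limma adjusted p = 1.35e-05) with DMSO and 3.84 with 4OHT.

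Snhg4 was the host whose early and late levels lay nearest. Its 0 min values were 117 and 230 (DMSO) and 127 and 418 (4OHT). At 8 min it read 368 and 588 with DMSO against 1201 and 1846 with 4OHT. The DMSO change of 1.50 ± 0.61 (limma adjusted p = 0.0312) was at the 55.7 percentile of all genes, so Snhg4 rose about as much as the typical gene, and without either DMSO 0 min library or without library 2 of DMSO at 8 min it did not pass (adjusted p = 0.378, 0.0504 and 0.269). Snhg12, the mixed host, read 11.3 and 18.3 with DMSO against 15.3 and 31.1 with 4OHT at 0 min. At 8 min it stood at 109 and 161 against 387 and 515, changes of 3.11 ± 0.59 (limma adjusted p = 1.09e-06) and 4.29.

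**Figure D1:**
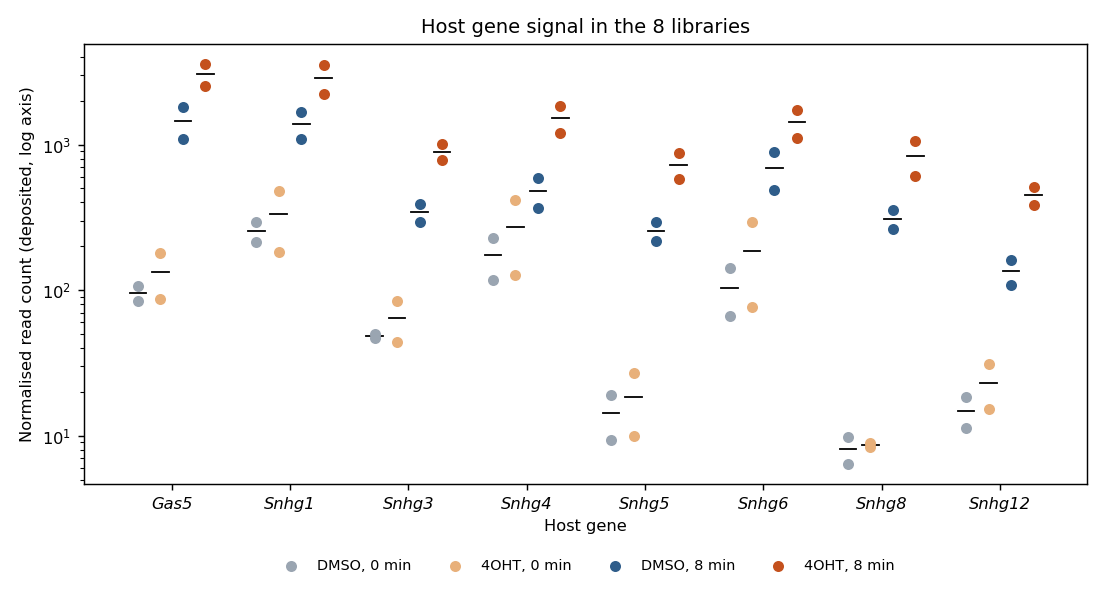
Normalised read counts of the 8 host genes on a log axis, 1 point per library, coloured by treatment and labelling time, with a bar at the mean of each group of 2 libraries. In every gene the 8 min points lie above the 0 min points of the same treatment, from 6.37 to 9.79 up to 262 to 1060 in Snhg8.

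Much of this rise was common to the libraries. The median of all genes tested was 1.25 with DMSO and 2.49 with 4OHT, and the host median was 2.95 (range 1.50 to 5.10) and 4.06 (2.69 to 6.38). Median-ratio scaling of all 8 libraries, which sets the typical gene near equal, brought the median of all genes to 0.10 and 0.11. After it, 7 of 8 hosts still passed as higher with DMSO (31.0% of genes tested) and 6 of 8 with 4OHT (30.3%). With DMSO, Snhg8 was then at 3.95 ± 0.37 (limma adjusted p = 0.000157), Snhg5 at 2.94, Gas5 at 2.64, Snhg12 at 1.92, Snhg3 at 1.56, Snhg6 at 1.52 and Snhg1 at 1.17. Snhg4 stood at 0.26 ± 0.32 (limma adjusted p = 0.517) with DMSO and 0.20 with 4OHT, and with 4OHT Snhg6 no longer passed either (0.71 ± 0.38, adjusted p = 0.137). The summed host reads, as a share that no divisor touches, were 218 and 275 RPM (reads per M reads) in the DMSO libraries of 0 min and 1032 and 988 in those of 8 min. In the 4OHT libraries they were 222 and 327 RPM and then 900 and 854.

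Genes of similar length were counted for comparison. Among 3391 tested genes of at most 5 kb, 31.7% rose with DMSO, with a median of 0.31 on the log2 scale. The 1341 protein-coding genes among them were like all genes, with 47.8% higher and a median of 1.25. Of the 280 long noncoding RNA genes of at most 5 kb, 66.1% rose, with a median of 2.19, and the host median of 2.95 was above that figure too.

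**Figure D2:**
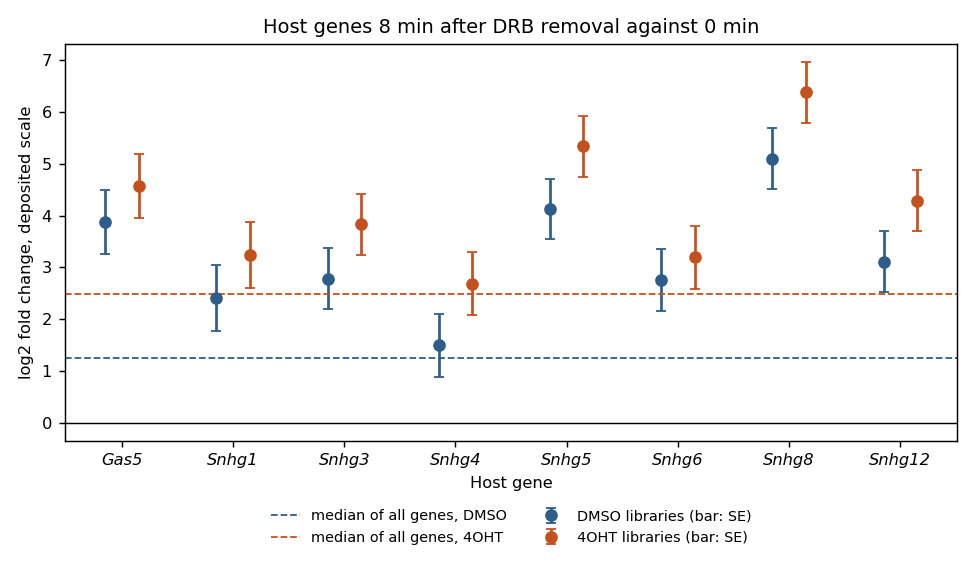
Log2 fold change at 8 min over 0 min for each host gene on the deposited scale, with DMSO (blue) and with 4OHT (orange), and bars for the standard error. Dashed lines mark the medians of all genes, 1.25 and 2.49. Snhg8 is farthest from its line in both treatments and Snhg4 sits close to it.

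Levels were compared between genes per kilobase of gene length, on the scaled values of the 8 min libraries, which are described with the next comparison. With DMSO, Snhg1 had the highest at 788 ± 15.0 normalised reads per kb (SD, n = 2). Snhg8 at 648 ± 69.0 and Gas5 at 591 ± 23.2 came next and changed places between the 2 libraries, so their order was not settled. Snhg6 followed at 527 ± 54.2, then Snhg3 at 323 ± 39.6, Snhg5 at 227 ± 24.2, Snhg4 at 158 ± 1.70 and Snhg12 at 93.9 ± 4.07, each in the same place in both libraries. With 4OHT the order below the top was Gas5, Snhg6, Snhg3, Snhg5, Snhg4 and Snhg12 in both libraries, while Snhg8 (617 ± 38.8) and Snhg1 (595 ± 2.11) changed places at the top.

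The order at 0 min was another. Snhg1 ranked 1 and Snhg6 ranked 2 per kb in all 4 libraries of 0 min, Gas5 ranked 5 in all 4, and Snhg8 ranked 6 to 8. Among 17272 genes with a RefSeq length, the hosts stood between the 82.8 and 96.7 percentiles of level per kb with DMSO at 0 min and between 93.4 and 99.3 at 8 min. Each value was divided by the whole gene length, and the hosts were not ranked among genes of similar length. How far short length alone sets these percentiles after 8 min of restarted transcription was not tested.

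Treatment with 4OHT was compared with DMSO at 8 min, which asks whether new host RNA differs when Ythdc1 is targeted. As deposited, both 4OHT libraries lay above both DMSO libraries in 8 of 8 hosts, and so did 90.3% of all genes tested, with 0.484% wholly below. Snhg12 (log2 fold change 1.74 ± 0.59, limma adjusted p = 0.0132), Snhg4 (1.68), Snhg5 (1.49), Snhg8 (1.397) and Snhg3 (1.38) passed as higher, 5 of 8 where 58.7% of genes did, and 0 passed as lower (0.131% of genes). Gas5 (1.10 ± 0.62, adjusted p = 0.0976), Snhg1 (1.06 ± 0.64, 0.122) and Snhg6 (1.06 ± 0.60, 0.102) did not pass in that limma fit. The host median of 1.39 was close to the median of all genes, 1.43, so on this scale the hosts moved with the whole table. In such bulk libraries fewer cells of a type and less RNA per cell cannot be told apart. The 5 calls were not stable when a library was left out. The median of all genes moved as well, between 1.11 and 1.77 when an 8 min library was left out. Under every rescaling tried 0 hosts passed, where 2 (median-ratio scaling) to 266 (DESeq2) of 20659 genes were higher. The instability is thus not shown to be particular to the hosts.

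The 4 libraries of 8 min were therefore also scaled to one another by median ratios and fitted alone, which puts the median of all genes at -0.0011. On this scale Gas5, Snhg1 and Snhg6 were lower with 4OHT, at 0.777, 0.755 and 0.756 of their DMSO level in the fit, and the other 5 hosts did not pass. Lower calls were 3 of 8, where 16.7% of all genes were lower, and higher calls were 0 of 8, where 18.6% were higher (limma; 1 of 8 at an unadjusted p under 0.05, and 0 with edgeR and with DESeq2).

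Gas5 read 2265 and 2394 scaled reads with DMSO against 1920 and 1706 with 4OHT, without overlap. Its means were 2329 ± 91.4 and 1813 ± 152 (SD, n = 2), a log2 fold change of -0.36 ± 0.12 (SE, limma adjusted p = 0.0170). At its start Gas5 overlaps the protein-coding gene Zbtb37, whose entry was higher by 0.55 (adjusted p = 0.00527) in the same limma fit, and its part in the Gas5 value was not tested.

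Snhg1 read 2268 and 2207 with DMSO against 1694 and 1685 with 4OHT, without overlap, means of 2237 ± 42.7 and 1689 ± 5.998 (SD, n = 2). The log2 fold change was -0.41 ± 0.11 (limma adjusted p = 0.00684). Its nearest neighbour Slc3a2, 118 bases away on the other strand, encodes the heavy chain of an amino acid transporter and was at -0.11 (adjusted p = 0.470).

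Snhg6 read 1023 and 1184 with DMSO against 839 and 824 with 4OHT, again without overlap. The log2 fold change was -0.40 ± 0.11 (limma adjusted p = 0.00663). The overlapping Mcmdc2 was lower as well, at -0.29 (adjusted p = 0.0444), and its part in the Snhg6 value was not tested.

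Higher values with 4OHT were seen in Snhg12, Snhg4 and Snhg5, none past the threshold. Snhg12 read 227 and 214 with DMSO against 293 and 245 with 4OHT (0.28 ± 0.12, limma adjusted p = 0.0801). Snhg4 read 768 and 780 with DMSO against 910 and 881 with 4OHT (0.21 ± 0.11, adjusted p = 0.131 in the limma fit). These 2 genes had both 4OHT libraries above both DMSO libraries, as 33.6% of all genes did, while 3 hosts lay below, against 33.7%. Snhg5 at 0.03 ± 0.11, Snhg8 at -0.07 ± 0.11 and Snhg3 at -0.08 ± 0.12 had overlapping groups.

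**Figure D3:**
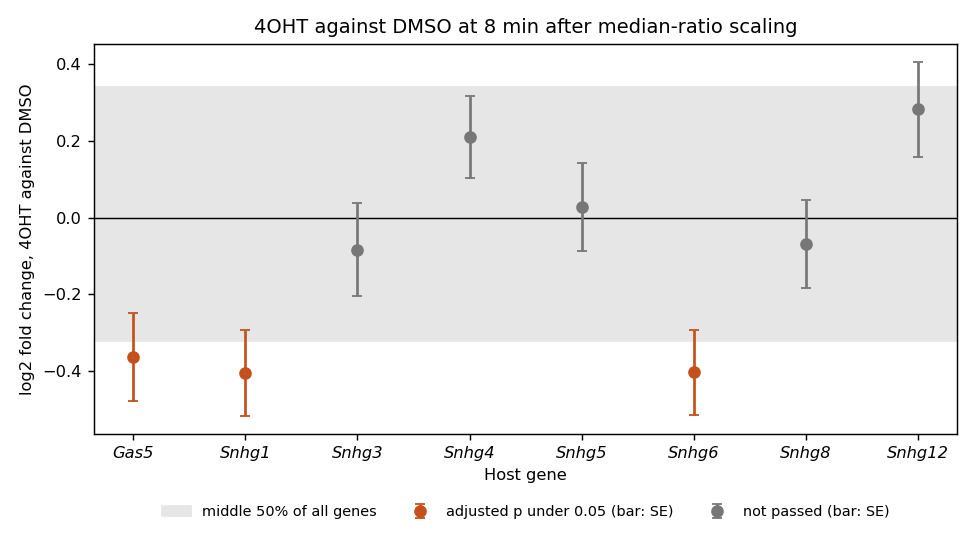
Log2 fold change of 4OHT against DMSO at 8 min for each host after median-ratio scaling of the 4 libraries, with standard errors, coloured where the adjusted p was under 0.05. The grey band holds the middle 50% of all genes, -0.32 to 0.34. Gas5, Snhg1 and Snhg6 lie below the band, between -0.36 and -0.41, and the other 5 lie inside it.

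The 3 lower calls rested on both 4OHT libraries. Without library 1 of 4OHT the adjusted p was 0.0761 for Gas5, 0.106 for Snhg1 and 0.0568 for Snhg6, and without library 2 it was 0.278, 0.0921 and 0.0605, in limma fits in which the lone library was taken to vary like the other group. Without library 2 of DMSO, Snhg6 alone missed the threshold (adjusted p = 0.0560). Genes of at most 5 kb were also more often lower than higher (20.3% against 6.99%, median -0.13), as were long noncoding RNA genes of that length (21.1% against 10.4%, median -0.07), and the host median was -0.08. Cell type markers moved in the same fit. Of the 8 embryonic stem cell markers 3 were lower with 4OHT, among them Nanog (-1.01, limma adjusted p = 3.85e-06) and Tdgf1 (-0.66), and 1 was higher, Sox2 (0.43). Of the fibroblast and feeder markers 3 passed the filter on low values and 2 were lower, Col1a1 (-1.04) and Pdgfrb (-1.05). Of 3 primitive endoderm markers tested Ttr was lower (-2.44, limma adjusted p = 3.08e-05), and of 3 trophoblast markers Tfap2c was lower (-0.60) and Gcm1 higher (1.10). As deposited, the lists summed at 8 min to 3315 and 4819 with DMSO against 7328 and 11729 with 4OHT for stem cells, 29.9 and 59.0 against 36.5 and 85.5 for fibroblasts, 32.8 and 54.9 against 54.9 and 112 for primitive endoderm, and 42.1 and 59.8 against 76.3 and 136 for trophoblast. The part of these markers in the lower host values was not tested.

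Because the size of every 4OHT change depends on the scale, the hosts were also set against one another within each library, where any divisor cancels. At 8 min Snhg4 supplied 9.41% and 9.57% of the reads of the 8 genes with DMSO and 12.7% and 13.1% with 4OHT. Snhg12 supplied 2.78% and 2.62% with DMSO and 4.10% and 3.64% with 4OHT, and Snhg5 5.53% and 4.76% against 6.15% in both. The shares of Snhg1 (27.8% and 27.1% against 23.7% and 24.99%), Gas5 (27.7% and 29.4% against 26.9% and 25.3%) and Snhg6 (12.5% and 14.5% against 11.7% and 12.2%) were lower with 4OHT, also without overlap. The share of Snhg1 was already lower with 4OHT at 0 min, at 38.4% and 33.9% against 33.2% and 31.4%, a difference in means of -3.84 percentage points beside -3.08 at 8 min. The other 7 shares overlapped at 0 min. Shares of one total are not independent of each other, and no test was run on them. They come from the same reads as the scaled fit, so their separation is not further support. By scaled values both 4OHT libraries lay above both DMSO libraries in 33.6% of all genes and below in 33.7%.

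The ratio of reads between hosts shows the same contrast in its simplest form. Except for Gas5 over Snhg1, the pairs set a host called lower over Snhg12 or Snhg4, the highest in the scaled fit. Their separation at 8 min restates those values and is not further support. There were 9.97 and 11.2 reads of Gas5 for each read of Snhg12 with DMSO at 8 min, and 6.56 and 6.95 with 4OHT. For Gas5 over Snhg4 the ratios were 2.95 and 3.07 against 2.11 and 1.94. Gas5 over Snhg1, both called lower, overlapped, at 0.999 and 1.08 with DMSO against 1.13 and 1.012 with 4OHT. At 0 min the Gas5 over Snhg12 ratios were 7.45 and 5.82 with DMSO against 5.67 and 5.82 with 4OHT, and the groups overlapped. Snhg1 over Snhg12 did not overlap at either time, at 19.1 and 16.0 with DMSO against 12.03 and 15.4 with 4OHT at 0 min and 9.98 and 10.3 against 5.78 and 6.86 at 8 min.

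For some hosts the share changed more with labelling time than with treatment. With DMSO, Snhg4 fell from a mean share of 23.8% ± 4.01 (SD, n = 2) at 0 min to 9.49% ± 0.111 at 8 min, while Gas5 went from 13.7% ± 1.90 to 28.5% ± 1.15 and Snhg8 from 1.24% ± 0.713 to 6.24% ± 0.658. Snhg1 had 36.2% ± 3.21 and then 27.4% ± 0.499. With DMSO, Snhg6, Snhg3 and Snhg12 kept nearer to one share over time. For them the 8 min means of the treatments lay farther apart than the DMSO means of the times. Snhg6 had 14.1% ± 3.17 at 0 min and 13.5% ± 1.403 at 8 min with DMSO, and 11.99% ± 0.340 at 8 min with 4OHT. Snhg3 had 7.06% ± 1.82, 6.93% ± 0.846 and 7.68% ± 0.785 in the same order, and Snhg12 had 2.07% ± 0.0733, 2.701% ± 0.115 and 3.87% ± 0.324.

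**Figure D4:**
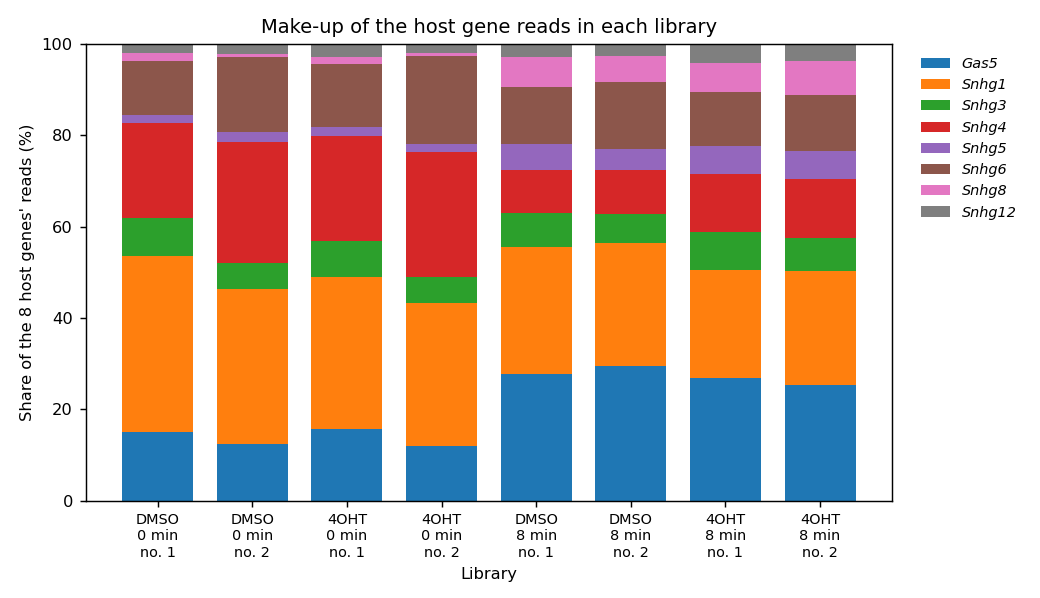
Share of each host gene in the summed reads of the 8 genes, in percent, 1 bar per library. The bars at 0 min carry more Snhg4 (20.9% to 27.5%) and less Gas5 (11.9% to 15.7%) than those at 8 min (9.41% to 13.1% and 25.3% to 29.4%).

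No host passed for 4OHT against DMSO at 0 min. The hosts read 0.12 (Snhg8) to 0.63 (Snhg6) higher with 4OHT on the log2 scale, with a median of 0.37 against 0.28 for all genes, and every limma adjusted p was 1. Among them 0 had an unadjusted p under 0.05, 0 passed with edgeR or DESeq2, and 0% of genes tested passed in either direction. In all 8 hosts the groups were not separated upward, since library 1 with 4OHT lay below at least 1 DMSO library.

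The difference between the 4OHT effects at 8 and at 0 min, an interaction term, did not pass for any host in limma, edgeR or DESeq2 (0 of 8, also 0 at an unadjusted p under 0.05). Values ran from 0.43 ± 0.85 for Snhg6 to 1.28 ± 0.83 for Snhg8, with adjusted p between 0.329 and 0.682 and a median of 1.11 against 1.15 for all genes, of which 0.392% passed as higher. With standard errors above 0.8 the design leaves wide intervals for each gene, so the effects at the 2 times are not shown to differ or to match.

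Inside the hosts, 11 of the 27 annotated small nucleolar RNA genes had an entry of their own, in 7 of the 8 hosts. Whether a read over such an RNA was counted for it, for the host or for both is not stated. At 8 min after scaling, the box C/D entries inside the 3 lower hosts were lower too. Snord47 in Gas5 changed by -0.47 (limma adjusted p = 0.0184), Snord87 in Snhg6 by -0.45 (0.0177) and Snord22 in Snhg1 by -0.37 (0.0234).

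The entries of the other hosts did not pass. Snora44 (0.46), Snord99 (0.37) and Snora61 (0.22) in Snhg12 and Snora74a (0.30) in Snhg4 had positive values, as did the microRNA gene Mir1949 in Snhg4 (0.38), with limma adjusted p between 0.0851 and 0.479. Snora16a in Snhg12 stood at -0.16, Snora24 in Snhg8 at -0.04, and Snhg3 held Snora73b at -0.35 and Snora73a at 0.02. Snora24 showed the release seen in its host, from 1.34 and 0.813 normalised reads with DMSO at 0 min to 69.8 and 77.7 at 8 min. Since these RNAs lie within the host transcript, reads from an unspliced host RNA and from the finished small RNA cannot be told apart in these entries.

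**Figure D5:**
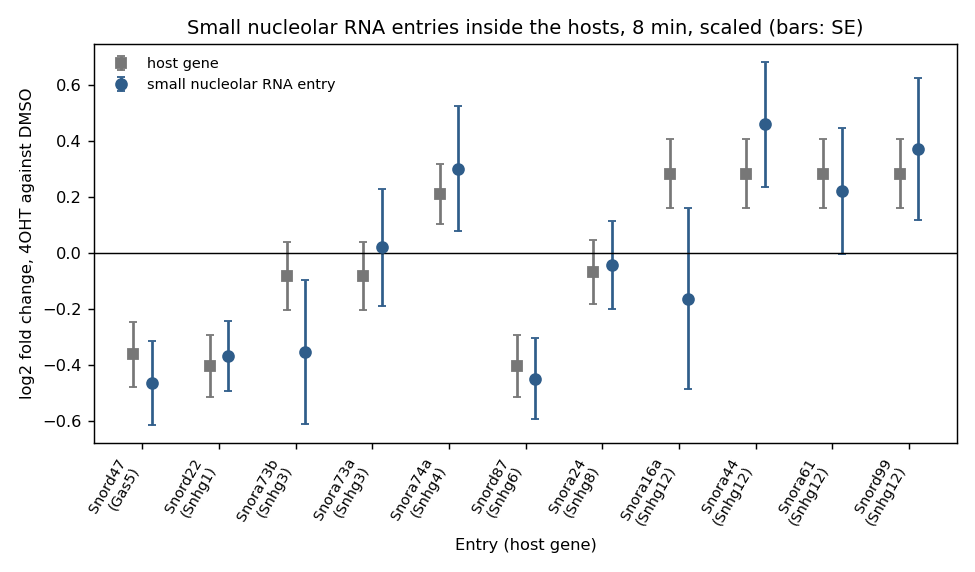
Log2 fold change of 4OHT against DMSO at 8 min after scaling, for the 11 small nucleolar RNA entries (blue circles) beside that of the host that contains each (grey squares), with standard errors. Snord47, Snord22 and Snord87 sit beside their hosts between -0.37 and -0.47, while the Snhg12 entries spread from -0.16 to 0.46.

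Of 13 other noncoding host genes listed, 11 had an entry and 10 passed the filter on low values. With DMSO, 7 of the 10 were higher at 8 min than at 0 min and 0 were lower, with a median of 2.39, where 47.0% of all genes were higher and 1.96% lower, with a median of 1.25. Zfas1 (3.39), Epb41l4aos (2.81), Snhg17 (2.61), Dancr (2.56), Snhg15 (2.404), Snhg7 (2.37) and Snhg20 (1.47) passed, whereas Snhg14, a very long host that also carries the antisense RNA of Ube3a, was at -1.30 (adjusted p = 0.0921 in limma). After scaling, 4OHT left 8 of the 10 without a call at 8 min, 1 was higher (18.6% of all genes) and 1 lower (16.7%). Snhg14 was higher by 0.47 (limma adjusted p = 0.00276) and Snhg11 was lower, at -0.66 (adjusted p = 0.000643).

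Of 34 protein-coding genes listed as carrying small nucleolar RNAs, 10 were lower with 4OHT at 8 min after scaling, 1 was higher and 23 did not pass. Their median was -0.22 against -0.0011 for all genes, of which 16.7% were lower and 18.6% higher. Tested protein-coding genes of at most 5 kb had a median of -0.12, with 18.3% lower and 10.5% higher. The 34 genes were not limited to that length, so the sets are not matched. Examples are Dkc1, the pseudouridine synthase of H/ACA particles (-0.53, limma adjusted p = 0.00115), Tpt1, an abundant translation-linked protein (-0.47), and Rps13, a ribosomal protein (-0.43). With DMSO, 17 of the 34 rose between 0 and 8 min, with a median of 1.32, close to the 47.0% and 1.25 of all genes.

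Among genes of proteins that bind or assemble small nucleolar RNAs, 14 of 19 rose from 0 to 8 min with DMSO (median 2.49, where 47.0% of all genes rose with a median of 1.25). After scaling, 4OHT left 15 of the 19 without a call, with 3 lower and 1 higher where 16.7% and 18.6% of all genes were. Dkc1 and the core H/ACA protein gene Nhp2 (-0.29) were among the lower genes, and Naf1, an H/ACA assembly factor, was higher (0.30, limma adjusted p = 0.0410). Of 16 nonsense-mediated decay factors, 12 rose with time in DMSO (median 1.802), against the same 47.0% of all genes. With 4OHT after scaling 2 were higher, among them Nbas (0.64, adjusted p = 0.000203 in limma), 2 were lower, the exon junction proteins Rbm8a (-0.60) and Magoh (-0.47), and 12 did not pass, so neither share exceeded that of all genes (18.6% higher, 16.7% lower).

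The hosts were also compared with each other over the 8 libraries, after the median of all genes was subtracted in each library. The Pearson correlation of a host with the mean profile of the 8 was 0.957 to 0.997 for 6 hosts, 0.886 for Snhg6 and 0.504 for Snhg4. Each host is part of that mean, so some of this agreement is built in. Over the 28 pairs of hosts the correlation ran from 0.258 to 0.990 with a median of 0.916. The libraries fall apart by labelling time, so these values mainly rank genes by the same step from 0 to 8 min. The 5 genes outside the list with the highest correlation with the mean profile were Sult2a3 (0.999), Ptp4a1 (0.999), AC121965.1 (0.999), Gm21985 (0.999) and Cdk1 (0.998), all over the same 8 libraries.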

How the data were processed

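The authors deposited 1 table of signal values for 8 libraries, with 37796 gene entries among 38971. The tools named per the submitters' processing notes are STAR 2.7, Bowtie2 and bcl2fastq, with mm10 as the build and no step given for any. Each library's signal, as deposited, is read counts over a single divisor, since multiplying back put 100% of entries within 0.01 of an integer. The meaning of that divisor, the strand counted and the treatment of multiply mapping reads are not given in the sources used here. Counting error understates the spread, since reads are not independent molecules.

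Here, log2(value + 1) of the 20659 genes with at least 10 in at least 2 libraries was fitted with limma 3.58.1 in R 4.3.3 (4 group means, all 8 libraries, trended empirical Bayes, two-sided), with Benjamini-Hochberg adjustment over all of them at 0.05. Fold changes are on that log2 scale, which understates low genes. The 4 libraries of 8 min were also fitted alone after median-ratio scaling. The scripts were tested on simulated data. Every column of the table had a group. Named were all 8 hosts, Ythdc1, entries inside or beside the hosts, up to 3 members of each gene list by smallest p at 8 min after scaling, and the 5 genes most like the mean host profile. The other noncoding hosts with their release values were named after their values were seen, as were Lum, Sox17, Sox7, Foxa2 and Afp for being at 0. Members and lists were chosen with earlier results of these data known. Alternatives were pseudocounts of 0.5 and 5, other filters and scalings, a library number block, leaving out each library, and edgeR 4.0.16 and DESeq2 1.42.0 on the recovered counts. Scaling the 8 min libraries with factors from all entries or from all 8 libraries was added after seeing the data. Coordinates, lengths and start sequences are from RefSeq on GRCm38.p6. The promoters of Snhg4 and Snhg6 were not analysed here. Not every entry that overlaps a host gene is reported here.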

Additional observations from a re-analysis of the deposited data

How the results depend on the processing

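Of 234 counts of host genes called under 22 alternative settings, 212 stayed within 1.5 times the reported count and 22 did not. Most of the 234 belong to results whose reported count was 0, so the total says little about the treatment calls. All 22 that moved concern 4OHT against DMSO at 8 min, as deposited or scaled. The rise from 0 to 8 min held for 7 to 8 hosts with DMSO and 6 to 8 with 4OHT in every alternative, and the counts at 0 min and for the difference of effects were 0 throughout. For 4OHT against DMSO at 8 min as deposited (5 higher), 1 host passed with no filter and 8 with the replicate block. Higher calls among all genes were 6540 of 37056 and 17087 of 20659 in those settings. With median-ratio, spike-in or quantile scaling, edgeR or DESeq2, 0 hosts passed. Of 20659 genes, 2, 29, 16, 2 and 266 were then higher in that order, so the host counts moved with the whole table. The host count also moved when a library was left out. Values turned negative with median-ratio, spike-in and quantile scaling, edgeR and DESeq2 for Gas5 (-0.44 with median-ratio scaling, -0.36 edgeR, -0.44 DESeq2), Snhg1 (-0.48, -0.41 and -0.49 likewise) and Snhg6 (-0.48, -0.41 and -0.49), which had not passed as deposited. Negative values were also seen for Snhg3 (-0.16 with median-ratio scaling, -0.13 quantile, -0.086 edgeR, -0.16 DESeq2), Snhg5 (-0.052 with median-ratio scaling, -0.023 quantile, -0.055 DESeq2) and Snhg8 (-0.15, -0.12, -0.075 and -0.15 in the order given for Snhg3). After scaling (3 lower, 0 higher), 0 hosts were lower with no filter, where 0 of 37056 genes were. Also 0 hosts were lower with no trend, with spike-in scaling, with all 8 libraries scaled and fitted, and on the deposited scale. Of 20659 genes, 2056, 4, 28 and 31 were then lower in that order. The count of lower hosts also moved when a library was left out. Higher calls were 4 hosts on the deposited scale (12319 of all genes) and 1 with the replicate block (4309 of all genes). That count, too, moved when a library was left out. On the deposited scale Gas5 was at 1.10, Snhg1 at 1.06, Snhg6 at 1.06 and Snhg8 at 1.397. The cause was not tested beyond the construction of each setting. The other scalings kept Gas5, Snhg1 and Snhg6 below 0 (-0.23, -0.28 and -0.27 with spike-ins, on either fit). Values that passed in neither setting were not counted as reversed. Factors from all 8 libraries in the fit of the 4, added after seeing the data, gave -0.44, -0.48 and -0.48 and split all genes into 3064 higher and 4381 lower in place of 3837 and 3454. Library numbers were not taken as pairs: deviations from the group mean correlated at 0.465 between treatments at 0 min, 0.0993 at 8 min, and 0.147 (DMSO) and 0.0356 (4OHT) between times. With the block, Snhg12 passed as higher at 8 min after scaling (0.28, adjusted p = 0.0461 in limma). Depth limits Snhg8 at 0 min most, with 94 to 234 reads a library.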

Other observations

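The table also holds entries for whole families of small nucleolar RNAs, which no comparison above used. The entry U3, a box C/D RNA needed for cleavage of the ribosomal RNA precursor and not made from these hosts, read 798 to 934 normalised reads at 0 min and 441 to 775 at 8 min. The entry U8 read 193 to 222 at 0 min and 55.4 to 152 at 8 min. U17, the family of Snora73a and Snora73b in Snhg3, read 26.7 to 53.4 at 0 min and 61.7 to 239 at 8 min. These entries collect reads from several loci and were not tested.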
